A study of Mus musculus with 6 samples.

Results

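B cell lineage genes were followed through bulk RNA-seq of subcutaneous white adipose tissue (scWAT). The group was taken by symbol and holds 9 of the 55401 genes counted: Cd79a, Cd79b, Cd22, Ms4a1, Blk, Pax5, Cr2, Fcer2a and Cd37. All 9 were found in the counts and all 9 passed the filter on low counts, which kept 16807 genes. Total RNA came from scWAT of 8-week-old male mice, with 3 libraries per genotype and each library labelled as a separate replicate. Control mice, labelled WT, are the YT-FF mice of the study's methods: both Yap and Taz were floxed in them but Cre was absent. YT-AKO mice had the same floxed genes together with Cre driven by the Adipoq promoter, whose activity is in mature fat cells and not in B cells. The floxed alleles came from a mixed C57BL/6 and 129 background, and the methods do not say whether the node that lies in the inguinal fat pad was taken out before RNA was made. The study's methods give n = 3 male mice per group for the RNA-seq, so the libraries are taken as separate mice. The p-values weigh a group difference against the spread between these libraries.

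B cells recognise antigen through a membrane immunoglobulin whose signal passes through a pair of attached chains, CD79A and CD79B. Co-receptors such as CD21 amplify the signal, CD22 dampens it, and the factor PAX5 holds the cells to the B lineage. Mouse scWAT contains resident lymphocytes, and the inguinal pad surrounds a lymph node whose follicles are packed with naive B cells, so RNA of these genes in a whole pad follows node and B cell content. In bulk tissue, fewer B cells and less RNA per B cell cannot be told apart.

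The libraries held 17740987 to 21838493 counts. Yap1, the gene deleted with Taz, ranged over 1295 to 1622 counts across YT-FF and over 492 to 649 in the second group, and fell by 0.98 on the log2 scale (adjusted p = 0.0179, edgeR). Wwtr1, which encodes TAZ, went against the label: its counts were 1729 to 1918 in YT-FF against 2253 to 3015 in the other group, and it rose by 0.89 (adjusted p = 0.0220, edgeR). Per exon length, as TPM (defined below), Wwtr1 overlapped: 62.3, 62.8 and 74.5 in YT-FF and 102, 48.7 and 91.3 in the other group. The paper reports an evident fall of YAP/TAZ protein in YT-AKO scWAT by immunoblot, a measure other than RNA counted over a whole gene. Because Wwtr1 counts rose, the second group is called the libraries labelled YT-AKO, and each direction below follows that label. YT-AKO replicate 2 stood apart: it had the most counts and the fewest genes detected (20501, against 22810 to 24576), and its scaling factor was 0.777 where the others had 0.954 to 1.16.

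Of the 9 B cell lineage genes, the libraries labelled YT-AKO had 5 at a lower and 0 at a higher level at an adjusted p below 0.05 in edgeR's quasi-likelihood test. Among all tested genes 9.01% were lower and 12.6% higher at that adjusted p, 21.6% in either direction. At an unadjusted p below 0.05 the counts over the 9 were the same, 5 and 0. The share of all tested genes at that unadjusted cutoff was not computed, for this fit or any below. Counts at an unadjusted p are therefore not set against the whole table. The same 5 were also those below every YT-FF library in every library labelled YT-AKO, as were 25.8% of all tested genes, and 0 of the 9 were above in the same sense, as were 25.7%. The 5 were Cd22, Ms4a1, Fcer2a, Cr2 and Blk, and Cd79a, Cd79b, Cd37 and Pax5 did not pass. Values below are CPM, counts scaled to a common library size, computed on library totals scaled by the trimmed mean of M-values (TMM), and fold changes are on the log2 scale, the libraries labelled YT-AKO over YT-FF. Summed over the 9 genes, CPM was 1639, 1693 and 1416 in YT-FF and 862, 1224 and 855 in the libraries labelled YT-AKO, whose mean was 61.9% of that in YT-FF.

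The signalling chains of the B cell receptor did not separate the groups. Cd79a (chr7:24897381-24902197, mm10, plus strand, summed exon length 1457 bases) had 208, 212 and 193 CPM in YT-FF and 159, 241 and 155 CPM in the libraries labelled YT-AKO. Replicate 2 of the second group was above every YT-FF library and the other two were below, so the groups overlapped. The log2 fold change was -0.14 (SE 0.207, adjusted p = 0.623, edgeR). Cd79b (chr11:106311341-106314762, minus strand, 1431 bases), the partner chain, had 184, 195 and 182 CPM in YT-FF and 124, 284 and 122 CPM in the libraries labelled YT-AKO. The same replicate was again the highest of all 6 libraries, 2.31 times the mean of its group's other two. The log2 fold change was -0.08 (SE 0.329, adjusted p = 0.867, edgeR), and its sign turned without YT-AKO replicate 1 (0.13) or replicate 3 (0.14).

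The surface receptors that tune this signal were lower. Cd22 (chr7:30865402-30880342, minus strand, 5042 bases), an inhibitory lectin of mature B cells that binds sialic acid, had 239, 248 and 195 CPM in YT-FF and 97.5, 84.2 and 101 CPM in the libraries labelled YT-AKO. All 3 libraries of the second group lay below the lowest of the first. The group mean fell to 41.4% of the YT-FF mean, from 227 ± 28.5 to 94.1 ± 8.70 CPM (SD, n = 3), and the log2 fold change was -1.27 (SE 0.170, adjusted p = 0.0166, edgeR). Cr2 (chr1:195136811-195176716, minus strand, 8145 bases) encodes complement receptors CD21 and CD35, which B cells share with follicular dendritic cells, and it had 126, 125 and 111 CPM in YT-FF. In the libraries labelled YT-AKO it had 59.1, 57.4 and 51.5 CPM, so the groups did not overlap and the spread within each was small. Cr2 changed by -1.11 (SE 0.147, adjusted p = 0.0166, edgeR), to 46.4% of the YT-FF mean.

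Fcer2a showed the largest change among the 9 genes with all 6 libraries, and Pax5 did without YT-AKO replicate 2 (-1.51 against -1.29 for Fcer2a). It encodes CD23, the low-affinity IgE receptor that marks follicular B cells, and lies at chr8:3681737-3694175 (minus strand, 3092 bases). Its level was 230, 242 and 174 CPM in YT-FF and 80.8, 68.3 and 94.9 CPM in the libraries labelled YT-AKO, with no overlap. The mean fell to 37.8% of that in YT-FF, and the log2 fold change was -1.40 (SE 0.201, adjusted p = 0.0171, edgeR).

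Of the surface genes Ms4a1 and Cd37, Ms4a1 passed the test and was lower. Ms4a1 (chr19:11249675-11266241, minus strand, 6187 bases) encodes CD20, the target of B cell depleting antibodies. It had 174, 202 and 158 CPM in YT-FF and 85.2, 77.1 and 75.0 CPM in the libraries labelled YT-AKO, again without overlap, and the means were 178 ± 22.2 and 79.1 ± 5.41 CPM (SD, n = 3). Its log2 fold change was -1.17 (SE 0.161, adjusted p = 0.0166, edgeR). Cd37 (chr7:45233632-45239115, minus strand, 3522 bases), a tetraspanin abundant on B cells and present on other leukocytes, had 275, 261 and 236 CPM in YT-FF and 173, 243 and 181 CPM in the libraries labelled YT-AKO. Replicate 2 of the second group reached into the YT-FF range, and the log2 fold change of -0.37 (SE 0.186) did not pass (adjusted p = 0.172, edgeR).

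Blk and Pax5 act inside the cell. Blk (chr14:63372836-63417037, minus strand, 2698 bases), a Src-family kinase downstream of the receptor, had 51.5, 52.8 and 45.5 CPM in YT-FF and 29.9, 33.2 and 27.5 CPM in the libraries labelled YT-AKO. The groups did not overlap, and Blk changed by -0.72 (SE 0.152, adjusted p = 0.0231, edgeR), the smallest change of the 5 that passed. Pax5 (chr4:44524757-44710487, minus strand, 8853 bases), the commitment factor of the B lineage, had 152, 155 and 121 CPM in YT-FF and 53.4, 136 and 46.5 CPM in the libraries labelled YT-AKO. YT-AKO replicate 2 lay inside the YT-FF range, 2.72 times the mean of the other two, and the log2 fold change of -0.86 (SE 0.395) did not pass (adjusted p = 0.141, edgeR). The study picked higher genes for its enrichment analysis at an adjusted p below 0.01 with a log2 change over 1. Applied here in both directions and called the study's rule, these stricter cutoffs were met by none of the 9 in edgeR. Of all tested genes 0.0357% met this rule in the lower direction and 0.0892% in the higher. DESeq2, the tool that the study's methods name, put 4 of the 9 past it in the lower direction, against 3.56% of all genes tested in that fit, and limma-voom put 0 past it, against 0.0357%.

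**Figure D1:**
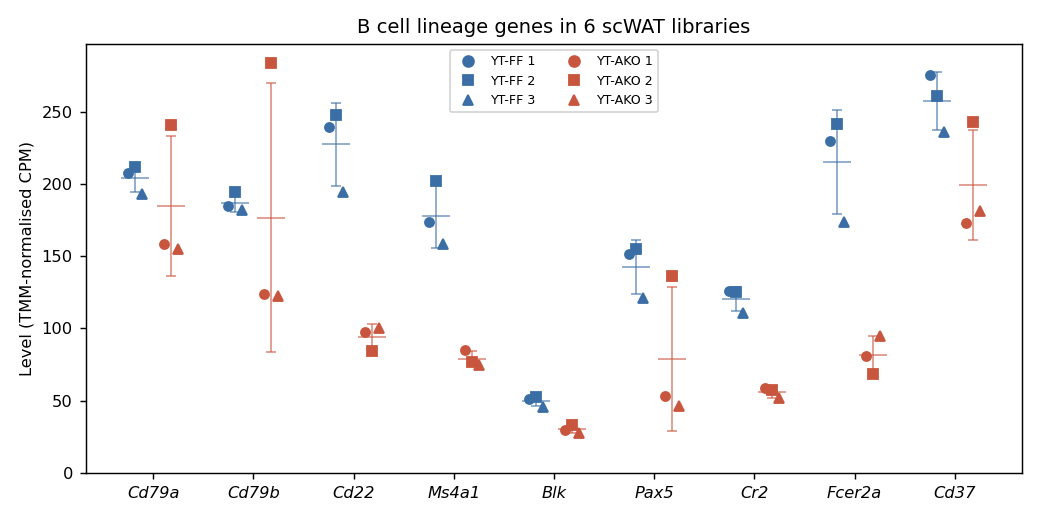
TMM-scaled CPM (linear axis from 0) of the 9 B cell lineage genes in each library, YT-FF and labelled YT-AKO side by side. Points are the 6 libraries and bars are the mean ± SD of 3. Cd22, Ms4a1, Blk, Cr2 and Fcer2a show groups that do not overlap, while for Cd79a, Cd79b, Pax5 and Cd37 the labelled YT-AKO replicate 2 reaches the YT-FF libraries.

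Promoter sequence is shown as a description for Cd79a, which did not pass with all 6 libraries, and for Cd22 and Cr2, which were lower. Sequence and fold change were not tested against each other. RefSeq windows of 250 bases before to 50 after a start (GRCm38.p6, the same build) matched 6 of the 9 genes in 8 windows. Cd79b, Ms4a1 and Blk were not matched. The Cd79a window is chr7:24897247-24897546 on the plus strand, the Cd22 window chr7:30878979-30879278 on the minus strand and the Cr2 window chr1:195176670-195176969 on the minus strand. Each is printed 5′ to 3′ along the gene, in lower case, with motif matches in capitals.
Cd79a: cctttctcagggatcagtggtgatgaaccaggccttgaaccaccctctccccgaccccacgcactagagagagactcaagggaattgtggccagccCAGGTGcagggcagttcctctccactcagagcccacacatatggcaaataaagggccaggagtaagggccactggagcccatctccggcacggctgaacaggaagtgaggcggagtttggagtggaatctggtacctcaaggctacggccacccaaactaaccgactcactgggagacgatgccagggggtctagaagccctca
Cd22: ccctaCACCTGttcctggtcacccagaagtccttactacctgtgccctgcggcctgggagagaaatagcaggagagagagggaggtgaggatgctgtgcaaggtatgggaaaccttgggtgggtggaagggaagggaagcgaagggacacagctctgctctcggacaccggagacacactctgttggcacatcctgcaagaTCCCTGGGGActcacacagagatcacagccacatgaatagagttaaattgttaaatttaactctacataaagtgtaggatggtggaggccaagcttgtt
Cr2: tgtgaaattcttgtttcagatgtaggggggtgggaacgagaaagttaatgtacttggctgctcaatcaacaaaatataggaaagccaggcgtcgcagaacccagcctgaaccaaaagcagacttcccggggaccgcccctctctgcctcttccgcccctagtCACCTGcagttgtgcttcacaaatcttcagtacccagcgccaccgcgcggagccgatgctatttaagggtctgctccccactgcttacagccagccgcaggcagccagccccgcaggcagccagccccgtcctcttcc
The motifs searched on both strands were the octamer ATTTGCAT, a PU.1/Spi-B sequence GAGGAAGT, the E-protein sequence CAGGTG and the palindrome TCCCNNGGGA bound by EBF. The capitals in Cd79a and Cr2 are E-protein matches at -154 and -88 from the start, and the match in Cr2 is on the opposite strand. In Cd22 they are an E-protein match at -245 on the opposite strand and an EBF palindrome at -49. No matches overlapped. Of all 32851 promoter windows, 20.2% hold the E-protein sequence and 0.904% the EBF palindrome. The octamer, present in 1.74% of all windows, was in none of the 8, and the PU.1/Spi-B sequence (3.20% of all windows) was in the Cd37 window. Of the windows, 3, that of Pax5 and a pair of those for Fcer2a, held none of these letters.

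Per unit of exon length, as TPM (transcript counts divided by exon length and scaled to a common sum), the receptor chains led. In YT-FF the level of Cd79a was 534 ± 49.3 TPM (SD, n = 3) and that of Cd79b 497 ± 39.0 TPM, and the libraries of these neighbours overlapped. Cd37 followed at 278 ± 32.0 TPM and Fcer2a at 266 ± 55.6 TPM, again overlapping. Below them came Cd22 (172 ± 28.9 TPM) and Ms4a1 (110 ± 18.4 TPM), each apart from its neighbours. Blk (70.5 ± 8.62 TPM), Pax5 (61.4 ± 10.7 TPM) and Cr2 (56.4 ± 6.33 TPM) closed the order, with Blk overlapping Pax5 and Pax5 overlapping Cr2. The libraries labelled YT-AKO had the genes in the same order of group means, from 294 ± 8.29 TPM for Cd79a to 16.6 ± 3.97 TPM for Cr2. On this scale all 9 genes had groups that did not overlap, with log2 ratios of means from -0.86 to -2.03. The same was true of 54.5% of all tested genes, whose median log2 TPM ratio was -0.66.

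Fold changes moved with exon length across the whole table, and the 9 genes span much of that range. Over all tested genes Spearman's rho between the log2 fold change and exon length was -0.376, a correlation across genes, which are not replicates. Among the 9 genes it was -0.55. Genes of 1 to 2 kb had a median log2 fold change of 0.60 and 2.19% of them were lower, whereas genes over 8 kb had a median of -0.47 and 26.2% were lower. Cd79a and Cd79b belong to the first range and lay below its median. Pax5 and Cr2 belong to the second and lay below its median too, as did Blk, Fcer2a and Cd37 in the range of 2 to 4 kb (median 0.19) and Cd22 and Ms4a1 in that of 4 to 8 kb (median -0.17). With exon length fitted as a smooth term per library, 6 of the 9 genes were lower, against 4.76% of all tested genes. Cd79a then had -0.59 (adjusted p = 0.0407, edgeR), Fcer2a -1.53 and Cr2 -0.77, while Cd79b at -0.57 (adjusted p = 0.140, edgeR) and Pax5 at -0.43 (adjusted p = 0.513, edgeR) did not pass.

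**Figure D2:**
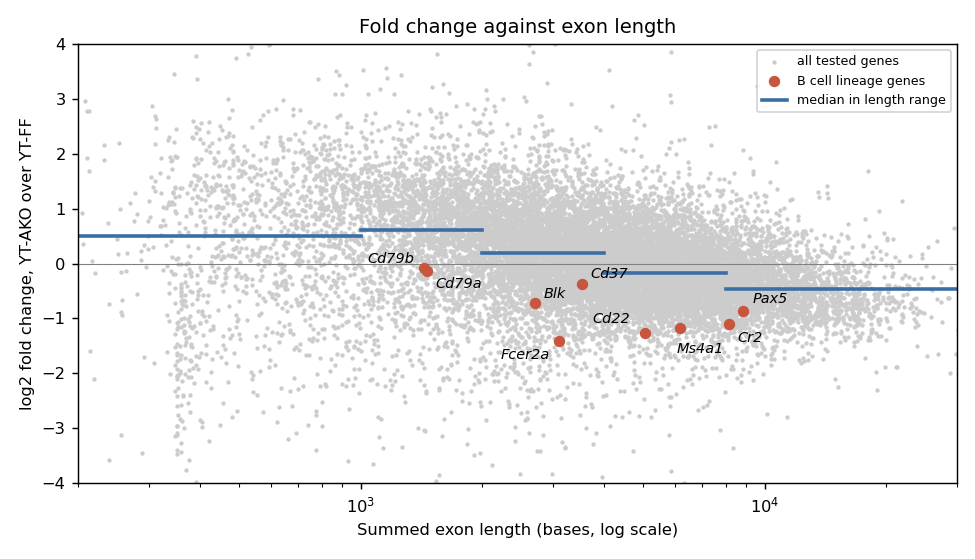
Log2 fold change (libraries labelled YT-AKO over YT-FF) against summed exon length in bases on a log axis. Grey points are tested genes, with 148 outside the drawn range left off, red points are the 9 B cell lineage genes and blue lines are the medians in 5 length ranges, which go from 0.50 below 1 kb to -0.47 above 8 kb; each of the 9 lies below the line of its range.

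The genes that did not pass were those for which YT-AKO replicate 2 reached the YT-FF range. This library had 2.31 times the mean of its group's other two for Cd79b, 1.53 times for Cd79a and 1.37 times for Cd37, but 0.850 times for Cd22 and 0.778 times for Fcer2a. Pax5 (2.72 times) is a long gene that was high in this library as well. Without it all 9 genes were lower, against 14% of all genes tested in that fit. Cd79a then changed by -0.38 (adjusted p = 0.0399), Cd79b by -0.61 (adjusted p = 0.00735), Cd37 by -0.54 (adjusted p = 0.0152) and Pax5 by -1.51 (adjusted p = 0.00158), all in edgeR. The calls also rested on the control libraries: without YT-FF replicate 1, and likewise without YT-FF replicate 2, 0 of the 9 passed (5 at an unadjusted p below 0.05 in each). In those fits 0 of 17183 and 2 of 17140 genes were lower in the whole table at the adjusted cutoff. The share of all genes at the unadjusted cutoff was not computed. The direction of the 5 genes that passed was down in every one of the 18 alternatives. They had been picked by this same difference and their groups did not overlap, so leaving out a library could hardly turn the sign. Their steady direction is not a separate result.

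**Figure D3:**
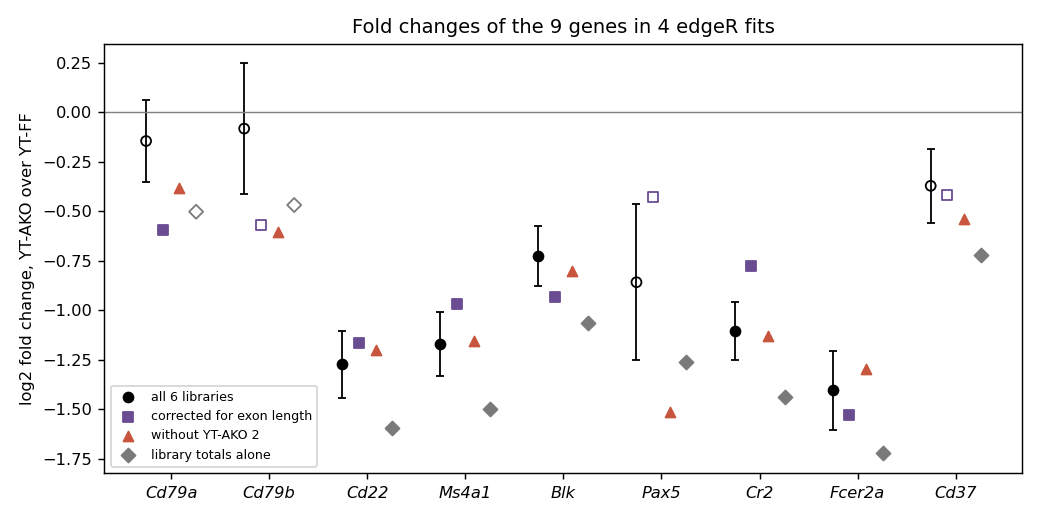
Log2 fold change (libraries labelled YT-AKO over YT-FF) of the 9 genes in 4 edgeR fits: all 6 libraries (black circles, with bars of ± 1 SE), corrected for exon length (squares), without YT-AKO replicate 2 (triangles) and scaled by library totals alone (diamonds). Filled symbols have an adjusted p below 0.05. Without replicate 2 all 9 are filled, and Pax5 goes from -0.86 to -1.51.

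The 9 genes did not vary as a single block over the libraries. Pearson's r of log2 CPM over the 6 libraries, given as a description of libraries shared by every gene, ran from 0.0837 to 0.996 over the 36 pairs, with a median of 0.776. The 5 genes that passed were close to each other, and Cd79a went with Cd79b. The 5 had been picked by the group difference that these values of r include, so their closeness is not a separate result. The genes of any kind whose pattern over the 6 libraries was most like the mean of the 9 were Trip12 (r = 0.999), Eml4 (0.998), Zfp810 (0.993), Zfp626 (0.993) and Mcm2 (0.992), out of 15193 candidates.

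Other genes of B cell biology were read from 8 lists with 72 tested genes, of which 27 were lower and 1 was higher at an adjusted p below 0.05, where 9.01% and 12.6% of all tested genes were. Without YT-AKO replicate 2 the counts were 40 and 2 (14% and 16.9% of all genes), and without YT-FF replicate 1 or 2 they were 0 and 0 (34 and 29 genes in either direction at an unadjusted p below 0.05). Of 14 co-receptors and signalling genes, 9 were lower and 0 higher, with a median of -0.73 where that of all tested genes was -0.02. The scaffold gene Bank1 fell from 87.5 ± 12.3 to 31.3 ± 1.31 CPM (SD, n = 3; log2 fold change -1.48, adjusted p = 0.0124, edgeR). Rasgrp3, a Ras exchange factor of the pathway, changed by -1.11 (adjusted p = 0.0177, edgeR). Cd81, the tetraspanin of the co-receptor that most cell types express, had a log2 fold change of 0.54 and did not pass (adjusted p = 0.0728, edgeR); it was picked for mention after its value was seen.

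Inhibitory and Fc receptor-like genes had 3 of 8 lower (median -0.63). Siglecg, another inhibitory lectin, went from 97.8 to 47.0 CPM (log2 fold change -1.06, adjusted p = 0.0177, edgeR). Cd72 changed by -0.82 (adjusted p = 0.0226, edgeR), but 41.6% of its exon bases are shared with Tesk1 and reads there could not be assigned. Of 10 transcription factors 7 were lower (median -0.81). Bach2, a repressor that keeps B cells from becoming plasma cells, went from 51.4 to 17.5 CPM (-1.55, adjusted p = 0.0166, edgeR) and Bcl11a, needed for lymphoid development, from 46.0 to 17.8 CPM (-1.36, adjusted p = 0.0166, edgeR). Of 10 genes of survival, homing and antigen presentation 6 were lower (median -0.91). Ciita, the master regulator of MHC class II genes, went from 151 to 53.5 CPM (-1.50, adjusted p = 0.0153, edgeR), and Tnfrsf13b, a receptor for the survival factors BAFF and APRIL, from 49.9 to 25.1 CPM (-0.99, adjusted p = 0.0177, edgeR).

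Lists of later and earlier B cell stages gave few calls. None of the 6 germinal centre genes passed (median -0.26): Gcsam had -0.60 (adjusted p = 0.196, edgeR) and the migration receptor gene S1pr2 0.37 (adjusted p = 0.321, edgeR). Of 10 plasma cell genes 1 was lower and 1 higher (median -0.05). Irf4, which activated B and T cells also use, fell from 50.1 to 28.7 CPM (-0.80, adjusted p = 0.0235, edgeR) and Sdc1, a proteoglycan also made by epithelial and other cells, rose from 12.3 to 22.4 CPM (0.87, adjusted p = 0.0296, edgeR). Jchain, which links secreted IgM and IgA, had 20.6, 127 and 44.9 CPM in YT-FF and 24.8, 94.7 and 19.7 CPM in the libraries labelled YT-AKO, with wide spread in both groups (-0.47, adjusted p = 0.667, edgeR). Of the precursor genes 2 of 6 could be tested and 0 passed: Vpreb3 had -0.31 (adjusted p = 0.599, edgeR) and Dntt 0.04 (adjusted p = 0.940, edgeR).

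Heavy-chain genes differed from one another. Ighd, the IgD constant region carried by naive mature B cells, had 487, 485 and 386 CPM in YT-FF and 183, 216 and 191 CPM in the libraries labelled YT-AKO. It did not overlap between groups and changed by -1.20 (SE 0.178, adjusted p = 0.0171, edgeR), the 1 of 12 tested constant-region genes that was lower, with 0 higher and a median of -0.23. Ighm had 772, 970 and 749 CPM in YT-FF and 510, 997 and 565 CPM in the libraries labelled YT-AKO, where replicate 2 was again above the rest (-0.27, SE 0.287, adjusted p = 0.510, edgeR). Ighe was at 0.852, 1.27 and 1.13 CPM in YT-FF and at 0, 0 and 0.355 CPM in the libraries labelled YT-AKO (adjusted p = 0.0595, edgeR), too few reads for a fold.

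**Figure D4:**
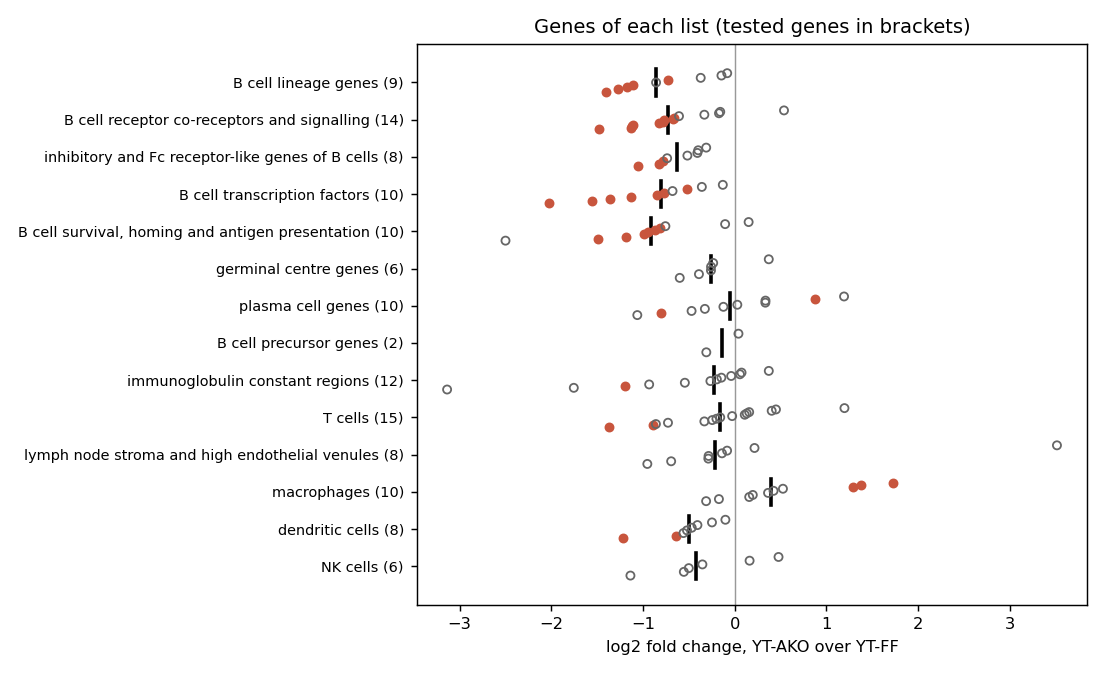
Log2 fold changes (libraries labelled YT-AKO over YT-FF) of the tested genes of the B cell lists and of lists for other cells. Each point is 1 gene, filled where the adjusted p is below 0.05, and a black tick is the median of the list; the median is -0.73 for co-receptors and signalling, -0.05 for plasma cell genes and -0.16 for T cells.

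Markers of other cells that a fat pad or node can hold were measured beside the B cell genes. Of 15 T cell genes 2 were lower and 0 higher (median -0.16). Over all tested genes 9.01% were lower and 12.6% higher, so this count and the counts of 1 gene in the lists below are close to the share of the whole table. Cd3e, a chain of the T cell receptor complex, had 69.0, 57.4 and 43.6 CPM in YT-FF and 40.6, 58.9 and 35.6 CPM in the libraries labelled YT-AKO (-0.33, adjusted p = 0.338, edgeR), while the costimulatory receptor gene Cd28 (-1.37, adjusted p = 0.0171, edgeR) and Cd4 (-0.89, adjusted p = 0.0253, edgeR) were lower. Without YT-AKO replicate 2, 3 of the 15 T cell genes were lower and 0 higher, where 14% and 16.9% of all genes were. Their median was then -0.43, and 7 had an unadjusted p below 0.05. With the length correction as well, 4 were lower and 0 higher (9.11% and 14.5% of all genes), with a median of -0.54 and 11 at an unadjusted p below 0.05. With all 6 libraries, none of 8 tested genes of lymph node stroma and high endothelial venules passed (median -0.21). Cxcl13, the chemokine that draws B cells into follicles, had 96.9, 131 and 104 CPM in YT-FF and 115, 82.6 and 74.3 CPM in the libraries labelled YT-AKO (-0.29, adjusted p = 0.339, edgeR), so the groups overlapped. Chst4, a sulfotransferase of high endothelial venules, had -0.95 (adjusted p = 0.0906, edgeR). Ccl19, a chemokine of the T cell zone, was at 31.0 CPM in YT-AKO replicate 2 and below 3 CPM elsewhere (3.52, adjusted p = 0.127, edgeR). Ccl21a, another chemokine of the T cell zone, chosen after its values were seen, had counts of 1, 3 and 3 in YT-FF and 15, 144 and 4 in the second group. It did not pass the filter. Reads that matched several places were not counted, so low counts of Ccl19 or Ccl21a need not mean that the RNA was absent. The summed CPM of the list, most of it from Cxcl13 and Glycam1, was 207 to 254 in YT-FF and 148 to 231 in the libraries labelled YT-AKO, with overlap, and its part in the B cell result was not tested.

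The B cell genes could be set against the T cell genes inside each library. The ratio of summed CPM, the 9 B cell lineage genes over the 15 T cell genes, was 1.45, 1.83 and 1.87 in YT-FF and 1.19, 0.997 and 1.44 in the libraries labelled YT-AKO. The groups met almost end to end without overlapping, and the mean log2 ratio of the second group minus that of YT-FF was -0.51. With Ptprc, the long pan-leukocyte gene that encodes CD45, in the denominator the ratio ran the other way: it was 2.71, 3.03 and 3.50 in YT-FF and 3.19, 6.22 and 4.15 in the libraries labelled YT-AKO, and the groups overlapped. From TPM the ratio to T cell genes was 1.49 ± 0.215 in YT-FF and 1.11 ± 0.215 in the libraries labelled YT-AKO (SD, n = 3), and the groups overlapped. These ratios are descriptions with no test.

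Macrophage, mast cell and adipocyte lists held genes that rose in the second group. Of 10 macrophage genes 3 were higher and 0 lower (median 0.39), with the complement genes C1qc at 1.29 (adjusted p = 0.0166, edgeR) and C1qb at 1.38 (adjusted p = 0.0177, edgeR). The list's summed CPM was 1368 to 1530 in YT-FF and 2056 to 2754 in the libraries labelled YT-AKO. Its largest gains were in Lyz2 (mean 747 to 1076 CPM) and C1qa (97.1 to 322 CPM), while Cd163 (-0.17) and Mertk (-0.31) did not rise. These and the C1q genes' lengths were looked up after the values were seen: Lyz2 and the C1q genes are of 1 to 2 kb, where 26.4% of genes were higher. Of 5 mast cell genes 4 were higher (median 1.62), among them the proteases Tpsb2 (1.76, adjusted p = 0.0166, edgeR) and Mcpt4 (1.62, adjusted p = 0.0177, edgeR). The summed CPM of this list was 42.5 to 53.2 in YT-FF and 81.4 to 111 in the second group. Kit, the remaining tested gene, had -0.42 (adjusted p = 0.268, edgeR) and has 8911 exon bases. The 4 that rose are of 1 to 2 kb, the range in which 26.4% of genes were higher. Kit and these lengths were also looked up after the values were seen. Of 8 adipocyte genes 3 were higher and 0 lower (median 0.61), including the lipase Pnpla2 (0.79, adjusted p = 0.0407, edgeR) and the fatty acid carrier Fabp4 (1.34, adjusted p = 0.0475, edgeR). Summed CPM was 12569 to 18303 in YT-FF and 21392 to 35293 in the second group, with the largest gain in Fabp4 (mean 5205 to 13197 CPM). Skeletal muscle genes had 1 of 6 higher, Acta1 at 2.67 (adjusted p = 0.0360, edgeR), and Mylpf at 2.38 did not pass (adjusted p = 0.176, edgeR). Their summed CPM was 483, 130 and 178 in YT-FF and 3326, 446 and 210 in the libraries labelled YT-AKO, so the rise lay mostly in replicate 1.

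Lists of the remaining leukocytes and of vessels gave few calls. Of 8 dendritic cell genes 2 were lower, where 9.01% of all tested genes were: Ccr9 (-1.22, adjusted p = 0.0372, edgeR) and Flt3 (-0.64, adjusted p = 0.0434, edgeR). Every fold change of this list was negative (median -0.49, highest -0.10). In 5 of the 8 all libraries of the second group lay below YT-FF, as in 25.8% of all tested genes. Summed CPM was 130 to 164 in YT-FF and 106 to 115 in the second group, and its part in the B cell result was not tested. None of 6 NK cell genes passed (median -0.43), with Klrk1 at -0.55 and Ncr1 at -1.14. None of 4 neutrophil genes passed, with Cxcr2 at -0.94 and S100a8 at 1.32. Of 6 endothelial genes 1 was lower, the VEGF receptor gene Kdr (-0.78, adjusted p = 0.0358, edgeR), and Emcn had 0.63. Neither epithelial gene passed, with Cdh1 at -0.69 and Epcam at 0.07. Of 6 pan-leukocyte genes 1 was lower: Ptprc, which encodes CD45 and has 18313 exon bases, went from 522 to 224 CPM (-1.22, adjusted p = 0.0190, edgeR), and Cd53 had -0.76. Fold changes by exon length and the summed macrophage, mast cell and adipocyte markers moved with the group labels in CPM, and their part in the lower level of the 5 B cell lineage genes was not tested. Per length, as summed TPM, the groups overlapped for macrophages (3063 to 3754 in YT-FF and 3503 to 3757 in the second group) and for adipocytes (16445 to 22242 and 19005 to 22119), and those of mast cells did not (79.9 to 93.8 and 132 to 154).

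**Figure D5:**
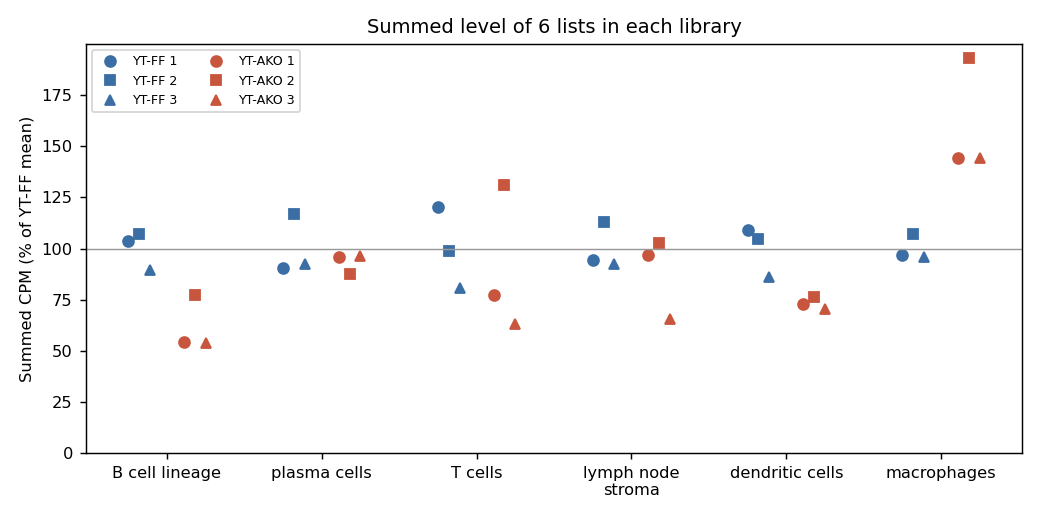
Summed CPM of the 9 B cell lineage genes and of lists for other cells in each library, as a percentage of the YT-FF mean. Each point is 1 library and the line at 100 is the YT-FF mean; the B cell lineage genes average 61.9% in the libraries labelled YT-AKO, with replicate 2 the highest of them.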

How the data were processed

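Bulk RNA-seq counts of 6 scWAT libraries were analysed, 3 from YT-FF and 3 labelled YT-AKO. Per the file headers, the authors counted read pairs per gene over exons with featureCounts 2.0.1, and the gene models were GENCODE. Their methods name HISAT2 alignment to mm10. The deposited values are raw counts, with reads of several genes or places not counted and strand not used. Symbols came from GENCODE through gene IDs, which matched 55141 of 55401 genes. From the counts, genes were kept by filterByExpr (minimum count 10, minimum total 15), scaled by TMM and tested with edgeR 4.0.16 (quasi-likelihood, R 4.3.3), with Benjamini-Hochberg adjustment over all 16807 genes. A gene was called at an adjusted p below 0.05. TPM was computed from counts and summed exon lengths. DESeq2 1.42.0, limma-voom (limma 3.58.1), other scalings and filters, an exon length correction (spline with 6 degrees of freedom), a replicate block and leaving out each library were alternatives, 18 in all. With 3 against 3 libraries an exact permutation test cannot go below 0.1, so none is given for single genes. The edgeR procedure was tested on simulated data.

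The 9 genes and the lists were chosen with earlier results of these data known. In each list the 2 genes with the smallest p were named, with Ighm, Jchain, Cd3e and Cxcl13, the targeted genes, and the 5 genes most alike in pattern among genes of at least 1 CPM. Another gene named by this rule is not reported here. Exon bases shared with other genes were 9.50% for Cd22, 8.60% for Pax5 and 0.369% for Cd37, where reads of both genes were not counted. Depth was 17740987 to 21838493 counts per library.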

Additional observations from a re-analysis of the deposited data

How the results depend on the processing

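Over the 9 genes and 18 alternatives, 128 of 162 values kept direction and call, 21 lost the call, 11 gained it and 2 turned sign, both of Cd79b: 0.13 without YT-AKO replicate 1 and 0.14 without YT-AKO replicate 3, in a range of -0.61 to 0.14 over the libraries left out. The number of genes lower (5) was 0 with the replicate number as a block and 0 with the block and the length correction together (6 and 7 at an unadjusted p below 0.05), and ran from 0 to 9 when single libraries were left out. It was 9 with the length correction fitted without YT-AKO replicate 2 (9.11% of all genes were lower), an alternative chosen after seeing the data. Replicate numbers are not taken as pairs: correlations of deviations between same-numbered libraries were 0.144, -0.146 and -0.0951, and with the block 9 genes in the whole table were lower and 24 higher. Under the study's rule the number lower (0) was 4 in DESeq2, where 3.56% of all genes were. It was 4 without a filter on low counts, 4 with the length correction without YT-AKO replicate 2, and 0 to 5 with single libraries left out. The share of all genes under that rule was not computed for these other fits, so their counts are not set against the whole table. The median log2 fold change (-0.86) was -1.02 in limma-voom, -1.26 on library totals alone (where the median of all genes was -0.34) and -1.03 with the block, and -1.13 to -0.65 with single libraries left out. The group difference in the mean log2 ratio of B to T cell genes (-0.51) ran from -0.65 to -0.38 with single libraries left out. The cause of these shifts was not tested.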

Other observations

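Some immunoglobulin genes varied widely between the libraries of a group. The 3 given here were chosen after their values were seen. Ighg2c had 3.41, 301 and 57.9 CPM in YT-FF and 47.7, 52.7 and 6.80 CPM in the libraries labelled YT-AKO, so YT-FF replicate 2 was far above the rest. Ighg1 had 7.67, 106 and 10.7 CPM in YT-FF and 10.2, 106 and 4.96 CPM in the libraries labelled YT-AKO, where replicate 2 of each group was high. The kappa light-chain gene Igkc had 341, 717 and 403 CPM in YT-FF and 300, 954 and 267 CPM in the libraries labelled YT-AKO, with the same 2 libraries highest. None of the 3 genes passed the edgeR test.

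Within the T cell list, Cd3d, a short subunit gene of the T cell receptor complex, had 165 CPM in YT-AKO replicate 2 and 31.5 to 35.8 CPM in the other libraries, whereas Cd3e of the same complex had 58.9 CPM there and 35.6 to 69.0 CPM in the others. Cd3d was also chosen after its values were seen.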
